A study of Caenorhabditis elegans with 18 samples.

Results

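The genes described here are the 67 ugt genes of Caenorhabditis elegans, taken by name: every gene whose WormBase name starts with ugt-, out of 46748 gene identifiers in the table of raw read counts. They encode UDP-glycosyltransferases, named UDP-glucuronosyltransferases after the mammalian family. These enzymes join a sugar from a UDP-sugar donor to small lipophilic molecules, which makes them more soluble and ready for export. The step follows oxidation by cytochromes P450, runs beside conjugation to glutathione and precedes removal by ABC transporters. In nematodes the sugar is often glucose, and the family is known for conjugating drugs and endogenous small molecules. The intestine is the main detoxifying tissue of the worm.

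The libraries were made from total RNA of whole N2 hermaphrodites, N2 being the wild-type strain, that received 1 of 3 plasmids and were 1 or 5 days old. L4440 is the empty vector of the common worm RNAi feeding libraries. M05B5.5 and T14F9.5 are the sequence names of hlh-2, the E-protein transcription factor, and of lin-32, an atonal-type proneural factor. Each of the 6 combinations of plasmid and age has 3 libraries. The labels state neither how the plasmids were delivered nor whether replicates are separate cultures, and p-values therefore measure only the spread between these libraries. Worms were whole, and in such bulk RNA fewer cells of a type and less RNA per cell cannot be told apart.

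The libraries held 27024193 to 43016293 counted reads. Expression of hlh-2 was 11.4 to 12.7 CPM (reads scaled to library size with TMM factors) in M05B5.5 libraries at day 1 against 23.7 to 53.9 CPM on L4440, and 12.5 to 31.1 against 53.8 to 59.3 CPM at day 5. For lin-32 the libraries labelled T14F9.5 were no lower than L4440: its level was 1.96 to 2.45 CPM against 1.74 to 2.57 on L4440 at day 1, and 1.06 to 5.29 against 0.234 to 0.952 CPM at day 5. These groups are therefore called by their label. Replicates are numbered in the order of their records, and replicate 1 of each plasmid at day 5 stood apart from replicates 2 and 3 of the same group, as the ugt values below show. Lanes 1 to 3 held day-1 libraries, lanes 5 to 7 held day-5 libraries, and lane 4 held 1 library of each age from different plasmids, so lane and age cannot be told apart on L4440, for T14F9.5 or with the plasmids averaged. On M05B5.5 a lane term could be fitted beside age.

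All 67 ugt genes are annotated as protein-coding. Chromosome V carries 42 of them, chromosome IV 12, chromosome I 5, chromosome X 4, chromosome III 3 and chromosome II 1. In 10 places, 31 of the genes follow one another with no other protein-coding gene between them. The longest such run spans 4892588 to 4911399 of chromosome V (WBcel235) and holds 7 genes in the order ugt-11, ugt-9, ugt-10, ugt-67, ugt-8, ugt-14 and ugt-13. Runs of 4 hold ugt-26, ugt-27, ugt-28 and ugt-25 (chromosome I, 4721131 to 4735276) and ugt-5, ugt-4, ugt-6 and ugt-3 (chromosome V, 12790676 to 12800271). Exons of 17 members overlap an exon of another annotated gene. Examples among those described below are ugt-64, which shares 72 exon bases with C07G3.10, ugt-57 (76 with F01E11.8) and ugt-47 (98 with srd-49). Others are ugt-48 (121 with cft-1), ugt-50 (340 with nhr-26), ugt-25 (26 with mlst-8) and ugt-59 (22 with sir-2.1), all of these on opposite strands. In ugt-22, 317 exon bases are shared on the opposite strand and 67 on the same strand. On the same strand ugt-40 shares 42 with another member, ugt-37. The library kit does not mark strand, so reads from those bases cannot be assigned to either gene. How reads that match several positions were counted is not given in the sources used here, so values of closely similar members are uncertain.

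Levels within the family spanned several orders of magnitude on a per-length scale, CPM per kilobase of exon. The highest mean over 18 libraries belonged to ugt-62, with 40.2 CPM per kilobase (26.2 to 71.9), followed by ugt-44 with 35.9 (21.4 to 45.0) and ugt-64 with 32.2 (12.8 to 46.0). These 3 genes made up 29.3% of the summed level of the family. The next 7 were ugt-22 (26.6), ugt-58 (25.04), ugt-63 (18.3), ugt-12 (15.5), ugt-47 (15.4), ugt-23 (11.9) and ugt-45 (10.5), and all 10 together made up 62.6%. Neighbours in this order of 10 had overlapping ranges over the libraries. A mean of at least 10 CPM per kilobase was found for 11 members, 32 had 1 to 10 and 24 had less than 1. Across the libraries, ugt-28 was steady at 5.98 to 8.32 CPM per kilobase, whereas ugt-66 ranged from 0.0173 to 5.25.

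**Figure D1:**
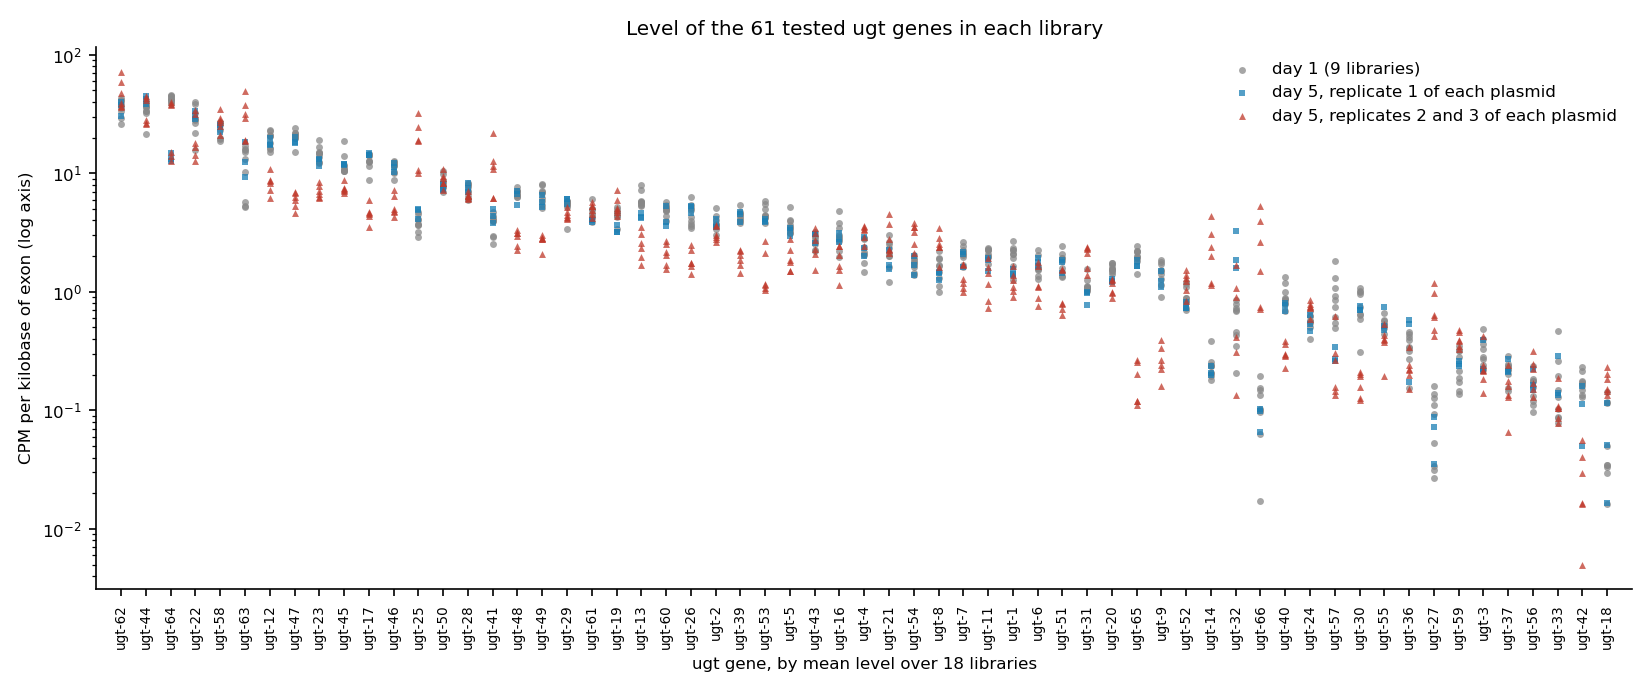
Level of each of the 61 tested ugt genes in each of the 18 libraries, as CPM per kilobase of exon on a log axis, in order of the mean level. Grey circles are the 9 day-1 libraries, blue squares replicate 1 of each plasmid at day 5 and red triangles replicates 2 and 3. The 1 value of 0 (ugt-42 in L4440 day-5 replicate 3) is drawn at a small positive floor value. The red triangles leave the grey circles in many genes, while most blue squares lie among them.

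A low-count filter over the whole table left 61 ugt genes among 14735 genes tested. The 6 members that did not pass were ugt-10, ugt-15, ugt-34, ugt-35, ugt-38 and ugt-67, with 86, 11, 46, 54, 56 and 12 reads summed over all 18 libraries. They lie in runs of neighbouring ugt genes, ugt-34 beside ugt-35 and ugt-10 beside ugt-67.

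Between day 1 and day 5, 28 ugt genes changed, more of them downward than upward. Day 5 was set against day 1 with the 3 plasmids weighted equally, by edgeR's quasi-likelihood test with Benjamini-Hochberg adjustment over all genes tested at 0.05, as in every comparison below. At day 5, 9 ugt genes were higher and 19 lower, and 33 did not pass. The 28 called genes are 45.9% of the 61 tested, against 28.2% of all 14735 genes, of which 13% were higher and 15.2% lower. The median log2 fold change was -0.24 for the 61 ugt genes and 0.00 for all genes, with 22 members above 0 and 39 below. DESeq2 called 36 of 65 members, 11 higher and 25 lower, where it called 29.4% of all genes. Both tests treat the 9 day-5 libraries as independent. In genes such as ugt-66, ugt-47 and ugt-64, however, day-5 libraries of the same replicate number deviated alike in all 3 plasmids. Standard errors and adjusted p-values with the plasmids averaged may therefore be too small, and the counts of called genes too large.

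Of the 9 rising members, ugt-14, ugt-27, ugt-59 and ugt-66 had less than 1 CPM per kilobase in every day-1 library. The largest change was in ugt-66, a gene on chromosome III with 0.0173 to 0.193 CPM per kilobase in the 9 day-1 libraries. At day 5 its level in replicates 1, 2 and 3 was 0.0988, 0.739 and 3.96 CPM per kilobase on L4440, 0.0654, 0.715 and 2.63 in the libraries labelled T14F9.5, and 0.102, 1.49 and 5.25 on M05B5.5. In each plasmid replicate 1 lay within the day-1 range, and replicate 3 was the highest. The log2 fold change was 3.52 ± 0.76 (SE, adjusted p = 0.0102 by edgeR).

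In ugt-14, from the long run on chromosome V, the day-1 libraries had 0.180 to 0.383 CPM per kilobase. At day 5 the replicates had 0.234, 1.19 and 3.06 CPM per kilobase on L4440, 0.200, 1.15 and 2.37 in the libraries labelled T14F9.5, and 0.207, 1.99 and 4.36 on M05B5.5. Again replicate 1 stayed among the day-1 values in all 3 plasmids, and the other 6 libraries exceeded every day-1 library. The log2 fold change was 2.60 ± 0.55 (adjusted p = 0.00955 by edgeR).

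Another rising gene was ugt-25 on chromosome I, with 2.92 to 4.75 CPM per kilobase at day 1. Its day-5 levels were 4.13, 10.04 and 24.5 CPM per kilobase on L4440, 4.98, 10.7 and 18.97 in the libraries labelled T14F9.5, and 4.92, 18.6 and 32.3 on M05B5.5. The log2 fold change was 1.87 ± 0.37 (adjusted p = 0.00852 by edgeR). Its neighbour ugt-27, from 0.027 to 0.161 CPM per kilobase at day 1, rose by 2.12 ± 0.53 on the log2 scale (adjusted p = 0.0145).

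On chromosome V, ugt-41 rose by 1.27 ± 0.28 on the log2 scale (adjusted p = 0.0110 by edgeR). Its level was 2.51 to 4.70 CPM per kilobase at day 1 and reached 12.8, 11.6 and 21.7 in replicate 3 of L4440, T14F9.5 and M05B5.5 at day 5. Another member of chromosome V, ugt-63, rose by 1.24 ± 0.26 (adjusted p = 0.00957) from a level that differed between plasmids, as described below. Smaller rises were called in ugt-54 (0.61 ± 0.18, adjusted p = 0.0247), ugt-59 (0.53 ± 0.18, adjusted p = 0.0414) and ugt-4 (0.39 ± 0.13, adjusted p = 0.0446).

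The falling members included 4 of the 10 most abundant genes of the family, ugt-64, ugt-12, ugt-47 and ugt-23. For ugt-45 the log2 fold change was -0.44 ± 0.16 (adjusted p = 0.0523 by edgeR), which did not pass. The largest called decrease among genes of at least 1 CPM was in ugt-57 on chromosome X. Its levels at day 1 were 0.542, 0.748 and 1.07 CPM per kilobase on L4440, 0.614, 0.500 and 0.853 in the libraries labelled T14F9.5, and 0.927, 1.30 and 1.83 on M05B5.5. At day 5 they were 0.259, 0.303 and 0.133 CPM per kilobase, then 0.271, 0.624 and 0.157, then 0.341, 0.266 and 0.145. The ages overlapped only through T14F9.5 replicate 2 at day 5, and the log2 fold change was -1.61 ± 0.26 (adjusted p = 0.00705 by edgeR). Here replicate 1 of each plasmid at day 5 also lay below the 3 day-1 libraries of its plasmid.

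In several other decreases replicate 1 stayed at the day-1 level. In ugt-47, an abundant gene of chromosome V, the 9 day-1 libraries had 15.2 to 24.3 CPM per kilobase. At day 5 replicate 1 had 20.4, 17.9 and 18.4 CPM per kilobase on L4440, T14F9.5 and M05B5.5, whereas the other 6 libraries had 4.63 to 7.01. The log2 fold change over all libraries was -0.996 ± 0.313 (adjusted p = 0.0306 by edgeR). The same division appeared in ugt-9 (day 1: 0.904 to 1.85 CPM per kilobase, replicate 1 at day 5: 1.09 to 1.498, the others 0.162 to 0.389), whose log2 fold change was -1.24 ± 0.40 (adjusted p = 0.0338). It also appeared in ugt-49 (day 1: 5.09 to 8.13 CPM per kilobase, replicate 1 at day 5: 5.16 to 6.51, the others 2.10 to 3.01), whose log2 fold change was -0.80 ± 0.22 (adjusted p = 0.0177). The remaining named decreases were ugt-53 (-0.98 ± 0.30, adjusted p = 0.0295), ugt-40 (-0.97 ± 0.25, adjusted p = 0.0152) and ugt-13 (-0.94 ± 0.19, adjusted p = 0.00877). A further 11 members fell by 0.46 to 1.27 on the log2 scale: ugt-1, ugt-5, ugt-11, ugt-12, ugt-20, ugt-23, ugt-39, ugt-42, ugt-46, ugt-48 and ugt-60.

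In 2 members the 9 libraries of day 5 lay entirely below the 9 of day 1, against 1.93% of all tested genes with no overlap in either direction. These were ugt-13, with 1.67 to 4.66 CPM per kilobase at day 5 and 5.34 to 8.03 at day 1, and ugt-20, with 0.886 to 1.29 and 1.42 to 1.74. No member lay entirely above. With each of the 18 libraries left out in turn, 16 of the 28 members were called every time, among them ugt-66, ugt-14, ugt-25, ugt-41, ugt-63, ugt-57, ugt-13, ugt-40 and ugt-49. The other 12 lost the call at least once, at adjusted p of up to 0.0943. They were ugt-4 (11 of 18 fits), ugt-9 (11), ugt-11 (11), ugt-12 (9), ugt-39 (14), ugt-46 (14), ugt-47 (10), ugt-48 (5), ugt-53 (9), ugt-54 (4), ugt-59 (13) and ugt-64 (3), each with the same direction throughout. Leaving out L4440 replicate 3, T14F9.5 replicate 3, M05B5.5 replicate 2 or M05B5.5 replicate 3 at day 5 reduced the count of called members to 17, 16, 17 and 16, and the share of all genes called to 15%, 15.1%, 16.3% and 15.7%.

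**Figure D2:**
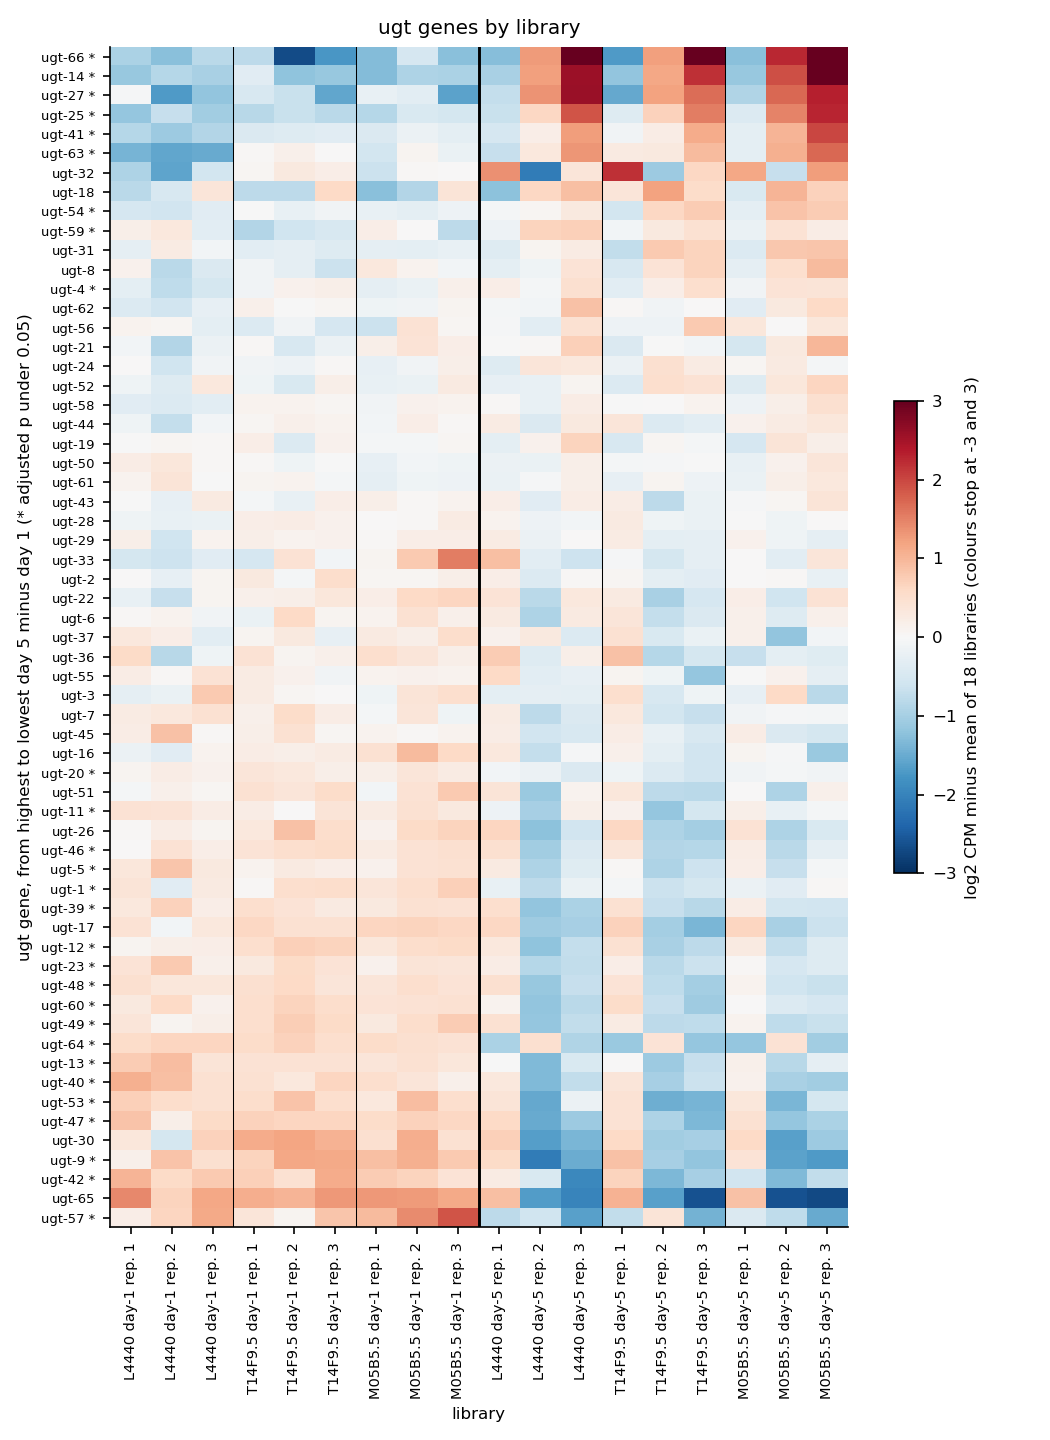
Log2 CPM of the 61 tested ugt genes (rows, ordered by their difference between ages) in the 18 libraries (columns), each as the difference from the gene's mean over all libraries. Asterisks mark the 28 genes past an adjusted p of 0.05 by edgeR with the plasmids averaged, and replicate 1 of each plasmid at day 5 resembles the day-1 columns in most rows.

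How far replicate 1 at day 5 was from the other libraries was read against the 3 day-1 libraries of the same plasmid. The median absolute log2 difference of the 61 members from the day-1 mean was 0.33, 0.22 and 0.19 in replicate 1 of L4440, T14F9.5 and M05B5.5. It was 0.72 to 1.02 in the other 6 day-5 libraries. In replicates 1, 2 and 3 of L4440, 43, 53 and 50 members lay outside the day-1 range. These are 70.5%, 86.9% and 82.0% of the members, against 66.5%, 62.7% and 67.5% of all tested genes. For T14F9.5 the numbers were 35, 55 and 53 (57.4%, 90.2% and 86.9%), against 44.6%, 66.5% and 69.0% of all genes. For M05B5.5 they were 39, 56 and 53 (63.9%, 91.8% and 86.9%), against 65.0%, 80.4% and 83.6%. Replicate 1 of M05B5.5 had 3 members above and 36 below its day-1 range, while replicate 1 of L4440 had 26 above and 17 below.

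**Figure D3:**
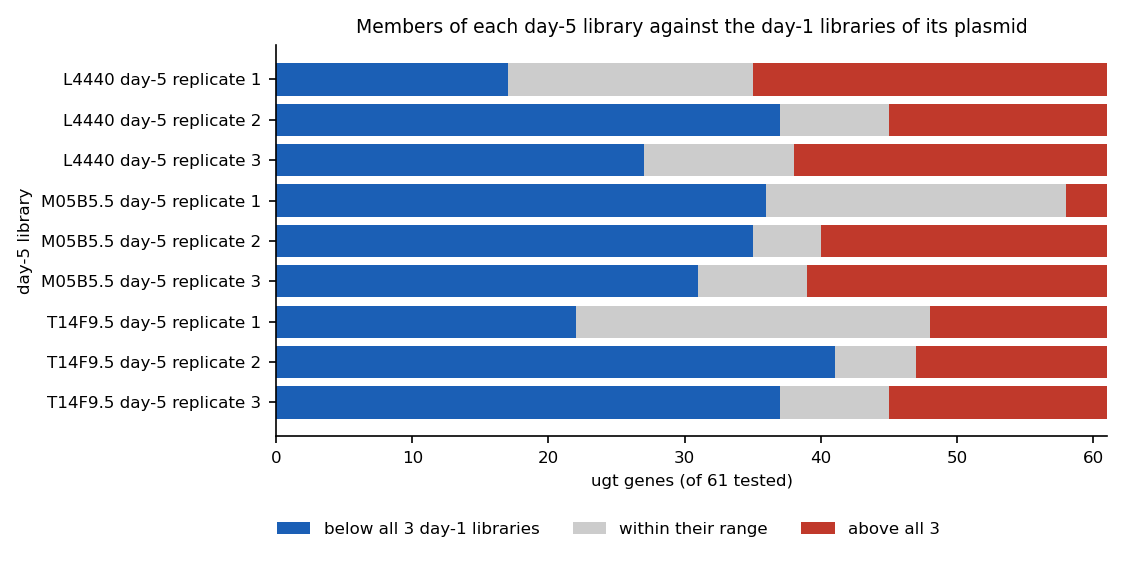
Number of the 61 tested ugt genes (horizontal axis) that were below, within or above the range of the 3 day-1 libraries of the same plasmid, for each of the 9 day-5 libraries. Within-range members number 18, 26 and 22 in replicate 1 of L4440, T14F9.5 and M05B5.5 and 5 to 11 in the other libraries.

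Without these 3 libraries, 44 of 61 members were called with the plasmids averaged, 15 higher and 29 lower, where 45.6% of all genes were called. They included 27 of the 28 called with all libraries, each in the same direction, and ugt-64 was no longer called. The libraries were set apart from the same counts, so the larger number is no independent support. Within each plasmid, 30 members were then called on L4440 (30.1% of all genes), 27 on M05B5.5 (20.4%) and 32 in the libraries labelled T14F9.5 (17.9%). In all 3 plasmids 23 members were called in the same direction, 6 higher and 17 lower, against 11.3% of all genes (4.78% higher and 6.53% lower). Day-5 libraries of the same replicate number deviated alike across plasmids in genes such as ugt-66. The agreement of the 3 plasmids is therefore no independent support either. In the averaged fit without replicate 1, ugt-66 rose by 4.07 ± 0.47 on the log2 scale, ugt-14 by 3.10 ± 0.27 and ugt-25 by 2.28 ± 0.20. There ugt-9 was at -2.32 ± 0.16 and ugt-47 at -1.78 ± 0.12. A wide division was also seen in ugt-65, which was not called with all libraries. Its level was 2.70 to 4.65 CPM at day 1, 3.18 to 3.56 CPM in replicate 1 at day 5 and 0.212 to 0.492 CPM in the other day-5 libraries.

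Summed markers of some tissues moved with the same libraries. The sum of 9 intestinal markers was 1666 to 2011 CPM at day 1, 1770 to 2199 CPM in replicate 1 at day 5 and 1078 to 1449 CPM in the other 6 day-5 libraries. The sum of 6 muscle markers was 1063 to 1790, 1636 to 1765 and 505 to 696 CPM in the same order. The sum of 8 epidermal markers was 385 to 544, 269 to 355 and 210 to 239 CPM. The sum of 10 germ line markers was 4359 to 6637, 6685 to 7020 and 5970 to 7064 CPM. Sums of 7 neuronal markers (260 to 316 CPM) and of 8 sperm markers (2.89 to 8.32 CPM) overlapped between all 3 sets of libraries. No marker of the intestine, muscle, epidermis, neurons or germ line was at 0 in any library, and 2 sperm markers were at 0 in at least 1. With the plasmids averaged, 28.2% of all genes were called, 13% higher and 15.2% lower. In that comparison 2 of 9 intestinal markers were called higher and 2 lower, and 1 of 6 muscle and 1 of 8 epidermal markers were called lower. Of the other lists, 2 of 7 tested sperm markers and 1 of 10 germ line markers were called higher, and 1 of 7 neuronal markers lower. The part of tissue composition in the ugt differences was not tested.

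**Figure D4:**
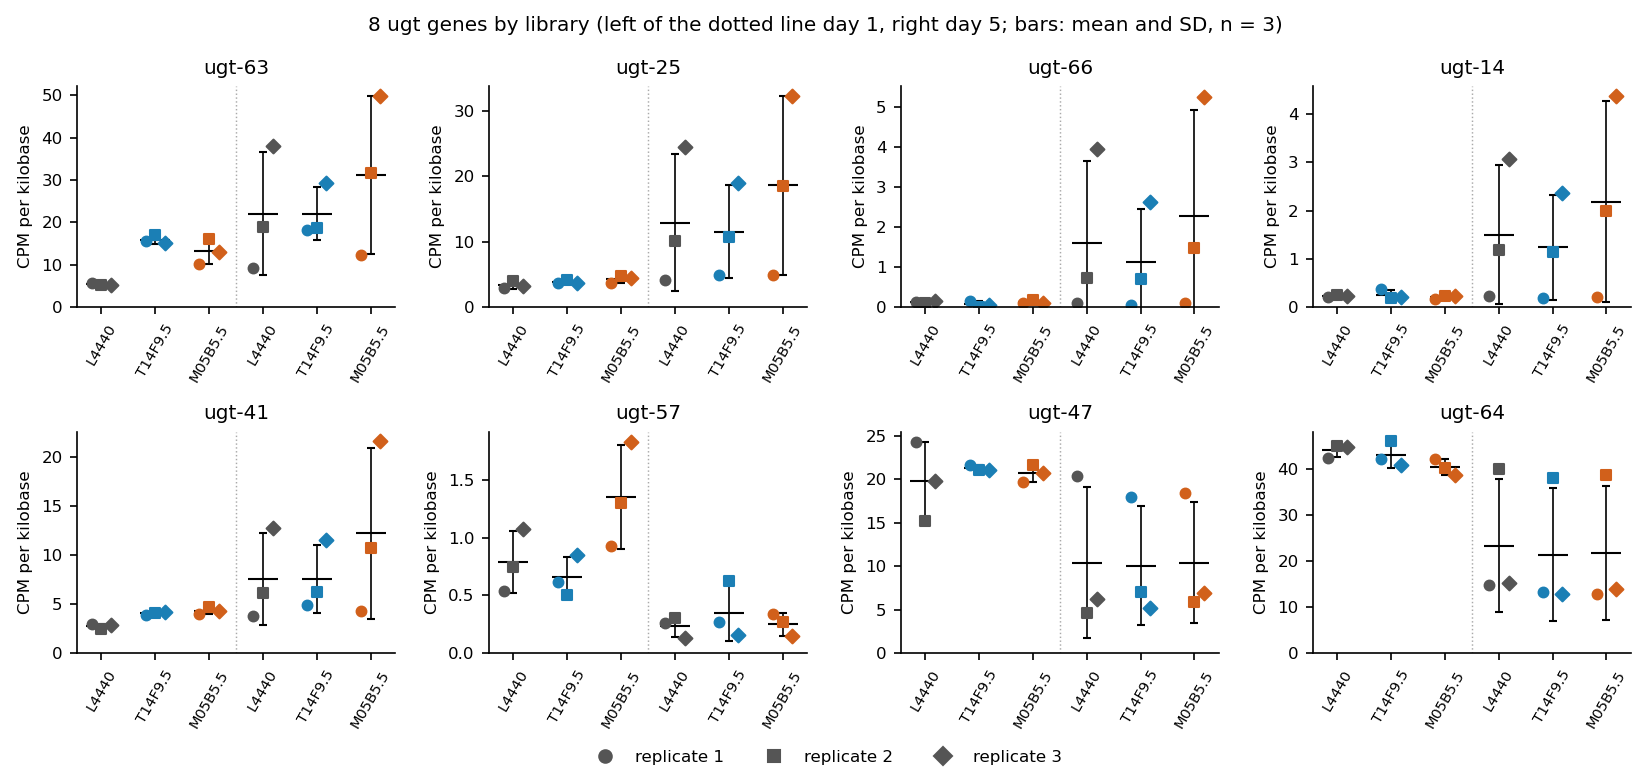
Level of 8 ugt genes as CPM per kilobase of exon in each library, by plasmid, with day 1 left and day 5 right of the dotted line. Circles, squares and diamonds are replicates 1, 2 and 3, horizontal bars the group mean and vertical bars the SD of 3 libraries. Replicate 1 at day 5 stays near day 1 in ugt-66, ugt-14, ugt-25 and ugt-47, whereas in ugt-64 replicates 1 and 3 are low and replicate 2 lies near day 1.

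A different division of the day-5 libraries was found in ugt-64, the third most abundant member, which lies on chromosome V from 3503080 to 3506352. At day 1 its levels were 42.3, 44.8 and 44.7 CPM per kilobase on L4440, 42.0, 46.0 and 40.7 in the libraries labelled T14F9.5, and 42.2, 40.1 and 38.6 on M05B5.5. At day 5 they were 14.7, 39.8 and 15.2 CPM per kilobase on L4440, 13.2, 37.9 and 12.8 in the libraries labelled T14F9.5, and 12.8, 38.5 and 13.9 on M05B5.5. In each plasmid replicates 1 and 3 at day 5 were thus low, and replicate 2 was much nearer to day 1, slightly below the 3 day-1 libraries of its plasmid. The log2 fold change over all libraries was -0.94 ± 0.27 (adjusted p = 0.0230 by edgeR), and it was -0.68 ± 0.28 (adjusted p = 0.0607) without replicate 1 of each plasmid at day 5.

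The genes most like ugt-64 over the 18 libraries were looked up after its values had been seen. By the correlation of log2 CPM across all tested genes they were M03F8.6 on chromosome V (r = 0.98), C55C3.7 (0.94), C55C3.3 (0.94) and C55C3.6 (0.93) on chromosome IV, F36D3.1 on chromosome V (0.92) and C55C3.4 on chromosome IV (0.87). The 18 points share lanes, ages and group means, so the correlations are a description. For M03F8.6 the day-1 libraries had 80.6 to 153 CPM. At day 5 replicate 2 had 124, 108 and 113 CPM on L4440, T14F9.5 and M05B5.5, and replicates 1 and 3 had 0.501 to 1.97 CPM. For C55C3.3 the day-1 libraries had 5.23 to 12.5 CPM, replicate 2 at day 5 had 14.8, 14.2 and 18.7 CPM, and replicates 1 and 3 had 0.504 to 1.48 CPM. What set these libraries apart was not tested.

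Among the 10 runs of neighbouring ugt genes, 6 held a called member, and 2 of these held both a higher and a lower one. In the run of 7, ugt-14 was higher at day 5 while ugt-13, the next gene of the run, was lower, as were ugt-9 and ugt-11 (-0.53 ± 0.17, adjusted p = 0.0351 by edgeR). Between them ugt-8 had a log2 fold change of 0.44 ± 0.20 (adjusted p = 0.106). In the run of 4 on chromosome V, ugt-4 was higher, and ugt-5 was lower with a log2 fold change of -0.63 ± 0.18 (adjusted p = 0.0219). On chromosome I, ugt-27 and ugt-25 were called higher, while ugt-26 (-0.61 ± 0.28, adjusted p = 0.110) and ugt-28 (-0.06 ± 0.09, adjusted p = 0.582) were not called.

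Over the 18 libraries the log2 CPM of ugt-9 and ugt-14 correlated at r = -0.92 and that of ugt-26 and ugt-27 at r = -0.83. The median r was -0.22 over 28 pairs within a run and 0.22 over pairs of different runs, of 1830 pairs in all. The pairs with the highest r were not neighbours: ugt-47 with ugt-48 (r = 0.98) and ugt-14 on chromosome V with ugt-66 on chromosome III (r = 0.98). All pairs share the same 18 libraries, and these values describe them only.

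**Figure D5:**
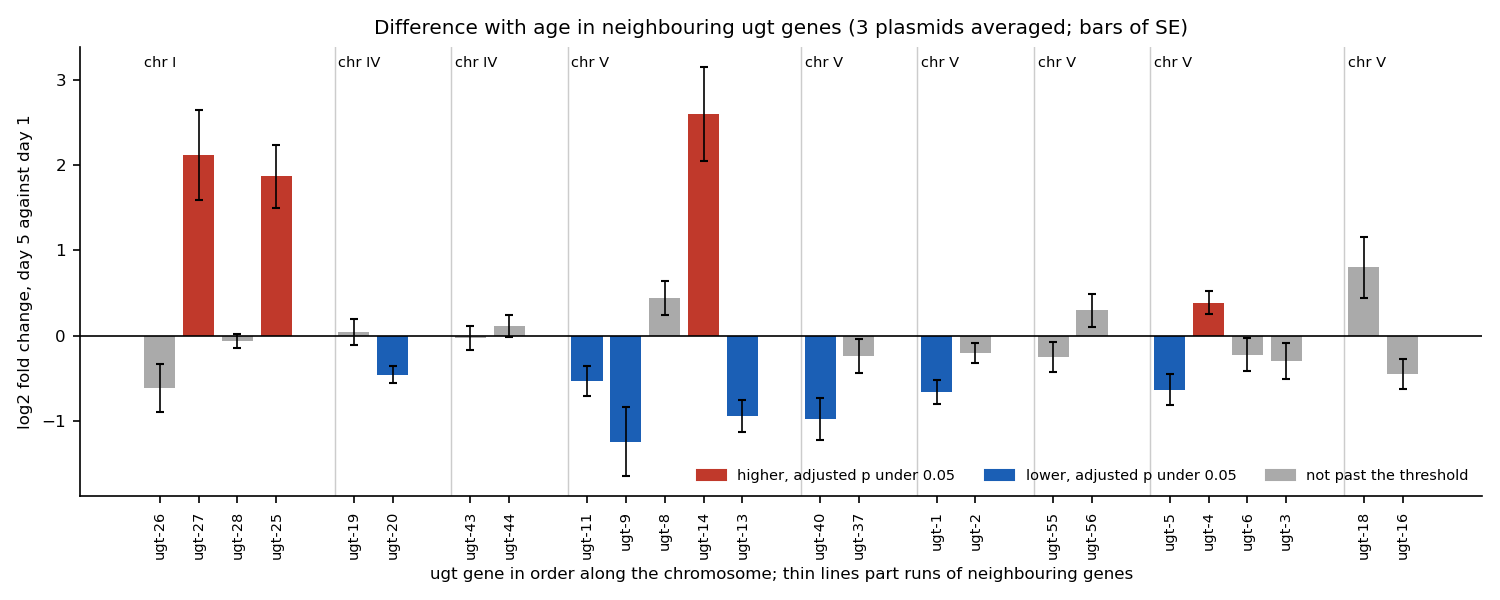
Log2 fold change between day 5 and day 1, averaged over the 3 plasmids, for the tested ugt genes of 9 runs of neighbouring genes, in their order along the chromosome. Vertical bars are standard errors, red and blue bars passed an adjusted p of 0.05 by edgeR as higher and lower, and grey bars did not. Called genes of both directions stand in the runs of ugt-14 and of ugt-4.

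Age was also tested within each plasmid, with 3 libraries of each age. On L4440, 4 of 61 members were called, 6.56% against the 15.8% of all genes called (6.72% higher and 9.11% lower). These were ugt-63 (log2 fold change 2.02 ± 0.47, adjusted p = 0.0355 by edgeR) and ugt-4 (0.73 ± 0.24, adjusted p = 0.0482), both higher, and ugt-13 (-1.21 ± 0.33, adjusted p = 0.0361) and ugt-57 (-1.65 ± 0.46, adjusted p = 0.0364), both lower. For ugt-63 the L4440 libraries had 5.75, 5.14 and 5.30 CPM per kilobase at day 1 and 9.33, 18.9 and 37.9 at day 5, with no overlap. DESeq2 called 13 of 60 members on L4440, 9 higher and 4 lower, where it called 26.1% of all genes. The edgeR count ran from 0 to 20 as single libraries were left out. It was 0 without replicate 1 or 2 of L4440 at day 1, any of the 3 day-1 libraries of M05B5.5, or replicate 2 or 3 of L4440 at day 5, and in these 7 fits no gene of the whole table was called. It was 8 without replicate 3 of L4440 at day 1, where 37% of all genes were called, and 8 without replicate 1 of T14F9.5 at day 5 (16.3% of all genes). It was 9 without replicate 1 of M05B5.5 at day 5 and 20 without replicate 1 of L4440 at day 5, with 18% of all genes called in each.

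On M05B5.5, edgeR called 0 of 61 members and 0% of all genes with age, with 14 members (22.95%) and 12.9% of all genes at an unadjusted p under 0.05. The lowest of these were ugt-57 (log2 fold change -2.32 ± 0.46), ugt-25 (2.10 ± 0.64) and ugt-14 (3.14 ± 0.96), each at an adjusted p of 0.303. DESeq2 called these 3 genes on M05B5.5, where it called 0.969% of all genes. Without replicate 1 of M05B5.5 at day 5, edgeR called 7 members and 4.89% of all genes.

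In the libraries labelled T14F9.5, edgeR again called 0 of 61 members and 0% of all genes with age, with 15 members (24.6%) and 10.2% of all genes at an unadjusted p under 0.05, and DESeq2 called 0 members. The lowest p-values belonged to ugt-20 (log2 fold change -0.66 ± 0.17), ugt-1 (-0.76 ± 0.25) and ugt-13 (-0.96 ± 0.33), each at an adjusted p of 0.491 by edgeR. The median log2 fold change of the members was -0.09 on L4440, -0.28 on M05B5.5 and -0.37 for T14F9.5, and those of all genes were -0.03, -0.01 and 0.01.

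Whether the difference with age depended on the plasmid was tested by interaction terms against L4440. For M05B5.5, edgeR called 0 of 61 members and 0% of all genes, with 3 members (4.92%) and 13.1% of all genes at an unadjusted p under 0.05, and DESeq2 called 0 members. The lowest were ugt-33 (-1.50 ± 0.62), ugt-50 (0.52 ± 0.23) and ugt-16 (-0.99 ± 0.43), each at an adjusted p of 0.380. For T14F9.5, edgeR called 0 members and 0% of all genes, with 2 members (3.28%) and 5.19% of all genes at an unadjusted p under 0.05, and DESeq2 called 0 members. The lowest were ugt-63 (-1.56 ± 0.64), ugt-62 (-0.80 ± 0.34) and ugt-58 (-0.43 ± 0.21), each at an adjusted p of 0.670.

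Plasmids were compared within each age against L4440, so the comparisons of M05B5.5 and T14F9.5 share the L4440 libraries. At day 1 the level of ugt-63 was 5.75, 5.14 and 5.30 CPM per kilobase on L4440, 10.3, 16.1 and 13.1 on M05B5.5, and 15.6, 17.0 and 15.2 in the libraries labelled T14F9.5. Both plasmids lay above L4440 in every library. The log2 fold change was 1.28 ± 0.46 for M05B5.5 (adjusted p = 0.0891 by edgeR) and 1.55 ± 0.46 for T14F9.5 (adjusted p = 0.146), and neither passed. The same order was seen in ugt-58, a gene on chromosome II, with 19.4, 18.5 and 19.9 CPM per kilobase on L4440, 23.2, 26.9 and 26.7 on M05B5.5, and 26.6, 26.7 and 25.7 for T14F9.5. Its log2 fold change was 0.41 ± 0.15 (adjusted p = 0.0919) and 0.45 ± 0.15 (adjusted p = 0.146).

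By edgeR 0 of 61 members and 0% of all genes were called for M05B5.5 at day 1, with 5 members (8.20%) and 31.8% of all genes at an unadjusted p under 0.05. For T14F9.5 at day 1 edgeR likewise called 0 members and 0% of all genes, with 5 members (8.20%) and 22.8% of all genes at an unadjusted p under 0.05. DESeq2 called ugt-63 and ugt-58 in both. These are 3.64% of the 55 members that it gave an adjusted p for M05B5.5, and 6.90% of 29 for T14F9.5. The adjusted p by DESeq2 was 0.0368 and 0.0494 for M05B5.5, where it called 17.7% of all genes. For T14F9.5 it was 0.0274 and 0.0488, where DESeq2 called 7.26% of all genes. The third gene of lowest p was ugt-33 for M05B5.5 (log2 fold change 1.41 ± 0.44, adjusted p = 0.0734 by edgeR) and ugt-4 for T14F9.5 (0.59 ± 0.24, adjusted p = 0.169). Without replicate 3 of L4440 at day 1, edgeR called 2 members and 33.7% of all genes for M05B5.5, and 1 member and 25.9% of all genes for T14F9.5. The sum over all members was 606 to 644 CPM on L4440, 673 to 764 on M05B5.5 and 733 to 760 for T14F9.5, with L4440 the lowest. The median log2 fold change was 0.15 for M05B5.5 and 0.13 for T14F9.5, and with an offset for gene length these became -0.026 and -0.013.

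At day 5 neither tool called a plasmid difference in the family, in fits that pair no libraries across plasmids. For M05B5.5, edgeR called 0 of 61 members and 0% of all genes, with 0 members and 1.36% of all genes at an unadjusted p under 0.05, and DESeq2 called 0 members. The lowest p-values were those of ugt-36 (log2 fold change -0.69 ± 0.43), ugt-41 (0.69 ± 0.48) and ugt-31 (0.50 ± 0.36), with adjusted p at or near 1. For T14F9.5, edgeR called 0 of 61 members and 0% of all genes, with 0 members and 0.631% of all genes at an unadjusted p under 0.05, and DESeq2 called 0 members. The lowest p-values were those of ugt-62 (-0.34 ± 0.24), ugt-21 (-0.45 ± 0.33) and ugt-19 (-0.36 ± 0.26), with an adjusted p of 1. The spread within groups was wide at this age: ugt-63 had 9.33, 18.9 and 37.9 CPM per kilobase on L4440, 12.3, 31.5 and 49.7 on M05B5.5, and 18.2, 18.6 and 29.3 for T14F9.5. In each group these values rose in the order of the records. The fits count such shared spread as error, so plasmid differences at day 5 may have been missed. The summed CPM of the members also overlapped, at 490 to 722, 609 to 786 and 517 to 684.

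Other genes of the same route were counted in the comparison of ages with the plasmids averaged, beside the 28.2% of all genes called. Of 4 genes of UDP-sugar supply, 2 were higher and 0 lower. They were sqv-1, the UDP-glucuronic acid decarboxylase (0.32 ± 0.09, adjusted p = 0.0211 by edgeR), and sqv-7, a UDP-sugar transporter (0.24 ± 0.09, adjusted p = 0.0486), while sqv-4, the UDP-glucose dehydrogenase that makes UDP-glucuronic acid, was at 0.09 ± 0.07 (adjusted p = 0.381). The 15 regulators of detoxification had a median log2 fold change of 0.42 on L4440, -0.12 on M05B5.5 and 0.11 for T14F9.5. With the plasmids averaged, 2 regulators were higher and 1 lower. They were the nuclear receptor nhr-86 (0.41 ± 0.12), wdr-23, which restrains the stress factor SKN-1 (0.34 ± 0.11), and the intestinal GATA factor elt-7 (-0.31 ± 0.10), and skn-1 itself was at 0.37 ± 0.19 (adjusted p = 0.148).

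The enzymes and pumps around the ugt step differed in direction. Of 37 tested glutathione S-transferases, 2 were higher and 20 lower at day 5, with a median log2 fold change of -0.48. Examples were gst-38 (-1.24 ± 0.15), gst-20 (-0.94 ± 0.14), gst-13 (-1.11 ± 0.18) and gst-36 (-0.62 ± 0.14), with adjusted p of 0.00308 to 0.0112 by edgeR. Within plasmids the median of the transferases with age was -0.84 on L4440, -0.27 on M05B5.5 and -0.49 for T14F9.5. Already at day 1 their median against L4440 was -0.68 for M05B5.5 and -0.62 for T14F9.5, with 0 called, so low values relative to L4440 preceded day 5. Of 62 tested cytochromes P450, 21 were higher and 6 lower, with a median of 0.21. Examples were cyp-13A5 (1.72 ± 0.31), cyp-35D1 (1.32 ± 0.25), cyp-34A9 (3.04 ± 0.63) and cyp-35B1 (3.38 ± 0.76), with adjusted p of 0.00776 to 0.0112. Within plasmids the median of the cytochromes with age was 0.28 on L4440, 0.24 on M05B5.5 and 0.19 for T14F9.5. The 22 ABC pumps of the mrp and pgp families had a median of 0.67 on L4440, 0.05 on M05B5.5 and 0.18 for T14F9.5. At day 1 their median against L4440 was 0.50 for M05B5.5 and 0.57 for T14F9.5, with 0 called. With the plasmids averaged, 8 of these pumps were higher and 0 lower, with a median of 0.28. Examples were pgp-4 (0.78 ± 0.12), pgp-3 (0.93 ± 0.19), mrp-7 (0.41 ± 0.10) and pgp-7 (1.36 ± 0.34), with adjusted p of 0.00602 to 0.0141.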

How the data were processed

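RNA-seq libraries of 18 samples of whole worms were prepared with Illumina's TruSeq chemistry (version 2 kit), according to the labels. Per the submitters' processing notes, the software was bcl2fastq 1.8.4, the aligner STAR 2.4.1d with the genome build WBcel235, and the counter featureCounts 1.4.6-p4. The deposited table holds the authors' raw counts per gene, with 0 columns left without a sample. The deposited RPKM table was not used. Library totals of 27024193 to 43016293 counts set the precision.

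From the counts, edgeR 4.0.16 in R 4.3.3 fitted the 6 groups jointly over the 18 libraries (TMM factors, filterByExpr with a minimum count of 10, robust quasi-likelihood, 12 residual degrees of freedom) and tested 10 comparisons, each adjusted over all 14735 genes. Log2 values in correlations and in the plot by library used a prior count of 2. CPM are TMM-scaled, and levels per length divide CPM by the union exon length of the Ensembl release 115 annotation, which also gave names and positions. A list of names and the annotation gave the same 67 ugt genes. The members, lists and tests were chosen with earlier results of these data known. The fit was tested on simulated counts drawn independently for each library, which hold no spread shared between plasmids.

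Named with values were members past the threshold (the 8 largest in each direction among those of at least 1 CPM where more than 16 passed, with 7 rising genes meeting this), otherwise the 3 of lowest p, the 10 of highest level and the members not tested. Other members are named as counted or as examples seen in the data. A planned comparison of protein sequences was not made. Alternatives were DESeq2 1.42.0, RLE factors, a lane term, the compared groups alone, no filter on low counts, a minimum of 50 counts, a gene length offset, and libraries left out.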

Additional observations from a re-analysis of the deposited data

How the results depend on the processing

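With the plasmids averaged, the number of called ugt genes depended most on which day-5 libraries entered. On L4440 the count with age also fell to 0 without replicate 1 or 2 of L4440 at day 1. The same held without any single day-1 library of M05B5.5. Without replicate 1 of each plasmid at day 5 the counts with age were 44 averaged, 30 on L4440, 27 on M05B5.5 and 32 for T14F9.5. With each library left out in turn they were 16 to 38 averaged, 0 to 20 on L4440 and 0 to 7 on M05B5.5, and those against L4440 at day 1 were 0 to 2 for M05B5.5 and 0 to 1 for T14F9.5. DESeq2 called 2 of 55 members for M05B5.5 and 2 of 29 for T14F9.5 at day 1, 13 of 60 with age on L4440 and 3 of 62 on M05B5.5. On L4440 the count with age was 1 with no filter, where 2.8% of all genes were called, and 0 with a gene length offset or the compared groups alone, where 0 of all genes were called. The fits of single plasmids with 1 library left out assume that the lone pairs vary like the other groups. The median log2 fold change for M05B5.5 at day 1 was -0.026 with the length offset and 0.10 to 0.25 with a library left out. For T14F9.5 at day 1 it was 0.21 with DESeq2, 0.15 with no filter and with the compared groups alone, -0.013 with the length offset, 0.10 with a lane term and 0.044 to 0.19 with a library left out. With age it was -0.65 on M05B5.5 with a lane term and -0.44 averaged with a minimum count of 50. The interaction medians were 0.033 for M05B5.5 with the length offset, and -0.32 to 0.087 for M05B5.5 and -0.44 to 0.035 for T14F9.5 with a library left out. Among single genes, ugt-41 for M05B5.5 at day 5 turned to -0.22 with a lane term, and ugt-62 for T14F9.5 at day 5 to 0.046 without L4440 replicate 3 at day 5, in a range of -0.51 to 0.046 with a library left out. Neither was called by edgeR with all libraries. Of the other values for named genes under the alternatives, 948 kept direction and side of the threshold, 100 lost a call and 19 gained one. A lane term could be fitted in 5 of the 10 comparisons and gave 0 called members there, and in the others lane and group cannot be told apart. No paired analysis was possible because the labels give no replicate numbers, and those used here follow the order of the records and pair no samples across plasmids or ages. Spread shared between plasmids at day 5 was therefore not modelled, and adjusted p-values with the plasmids averaged may be too small. With 3 libraries a group and a wide spread at day 5, differences within a plasmid were often not detectable, and members under 1 CPM per kilobase rest on few reads.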
